A study of Mus musculus with 20 samples.

Results

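Post-capillary venules of the mouse renal cortex were compared with whole kidney in 8 of the 20 mRNA libraries of the series, 4 from laser microdissected venules and 4 from whole kidney sections. The members were taken from the deposited labels and table headers: the 4 columns of the section "venules" and the 4 of the section without microdissection, both untreated. All 8 libraries came from healthy adult male C57BL6/OlaHsd mice of wild-type genotype (WT), with no allele or agent that separated the groups. Venules were cut by their shape on cryosections stained with hematoxylin, so a venule library holds the wall and whatever lay in the lumen and against the wall. The labels call the 4 samples of each group biological replicates without naming the mouse behind each, and p-values therefore measure the spread between these samples. Microdissected samples were prepared by a low-input protocol with more PCR cycles than whole kidney samples, which cannot be told apart from the difference between venules and whole kidney.

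Post-capillary venules collect blood from the peritubular capillaries of the cortex. Their wall is a thin endothelium on a basement membrane, with pericytes, scattered smooth muscle cells and a sleeve of connective tissue, and in many organs they are the segment where leukocytes leave the blood. Red blood cells fill the lumen, and cortical tubules lie directly against the wall. Most of the RNA of a whole kidney comes from tubule epithelium, the proximal tubule above all. In such bulk samples, more cells of a type and more RNA per cell cannot be told apart.

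Venule libraries held 4639090 to 9038724 counts and whole kidney libraries 7654464 to 12283098. Levels are given below as CPM, counts scaled to library size with TMM factors. They follow the library order 93, 96, 98 and 100 of the table's column names, and a mean is followed by its SD (n = 4). After thinning to 4639090 counts, 11410 to 12752 genes had at least 1 count in venules and 17542 to 18690 in whole kidney. The difference of means was -6097 (exact two-sided permutation p 0.0286, the smallest that 4 against 4 can give). Venule libraries resembled one another less (Spearman correlation 0.623 to 0.684) than whole kidney libraries did (0.960 to 0.985), and correlated with whole kidney at 0.726 to 0.784. The mitochondrially encoded share did not separate the groups (means of 13.7 and 13.6%, exact p 0.943), whereas mitochondrial ribosomal RNA made up 2.88 to 3.45% of counts in venules and 1.95 to 2.04% in whole kidney (exact p 0.0286).

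Much of the spread among venule libraries was a matter of presence or absence. Of 7384 genes with at least 10 CPM in all 4 whole kidney libraries, 1781 (24.1%) fell under 1 CPM in at least 1 venule library, but only 16 (0.217%) did so in all 4. The loss was concentrated in weakly transcribed genes: it touched 44.7% of genes whose lowest whole kidney value was 10 to 30 CPM, 5.99% of those at 30 to 100 CPM and 0 of the 859, 248 and 53 genes in the bins above. Among the 12919 genes tested, 36.9% lay under 1 CPM in a venule library and at 10 CPM or more in another, against 0.0619% in whole kidney. A gene with such a gap is called split below. Low-level genes that were present in some venule libraries and missing in others were thus common throughout these samples.

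**Figure D1:**
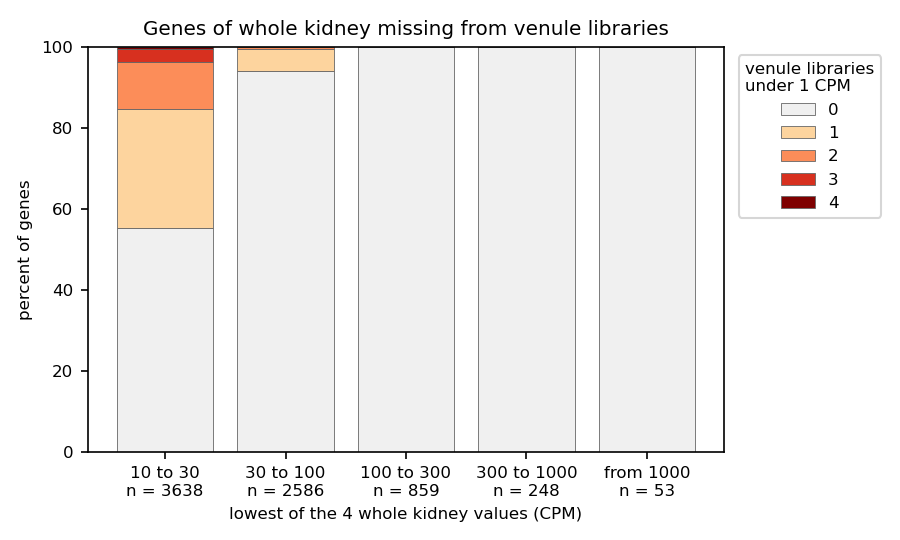
Genes with at least 10 CPM in all 4 whole kidney libraries, binned by their lowest whole kidney value (x axis, CPM), with the percent of genes (y axis) that fell under 1 CPM in 0, 1, 2, 3 or 4 venule libraries as stacked bars. The coloured share is 44.7% in the lowest bin, 5.99% in the next and 0 in the 3 highest bins.

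By edgeR's quasi-likelihood test, 317 of 12919 genes (2.45%) were higher in venules and 765 (5.92%) were lower. The call required a false discovery rate (FDR) under 0.05 together with a change of more than 1 in either direction on the log2 scale. Of the 317 higher genes, 307 had at least 10 CPM in all 4 venule libraries, and in 301 the groups did not overlap. Most of the 765 lower genes were weak ones: 708 lay under 1 CPM in every venule library, 149 of them had no venule count at all, and 73 had at least 10 CPM in all 4 whole kidney libraries. All 4 venule libraries lay above all 4 whole kidney libraries in 6.08% of genes tested, and below in 12.4%. The median log2 fold change of all genes was 0.20, the level against which list medians below can be read.

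The counts rose whichever venule library was left out and fell whichever whole kidney library was. Without venule 93, 96, 98 or 100 they came to 540, 503, 580 and 552 genes higher and 1717, 1464, 1612 and 1444 lower. Without whole kidney 93, 96, 98 or 100 they came to 187, 184, 156 and 157 higher, and to 493 lower without whole kidney 98. When all 20 libraries shared an estimate of the spread, 28 genes stayed higher and 3 lower. These 28 genes, and Napsa and Slc7a13 among the 3, were called in the same direction in all 16 alternative fits. Among the 28 were the 4 adult globins, Mgp, Dcn, Col1a1, Cygb, Eln, Ltbp4, Sparc, Myl9, Acta2, Myh11, Flna, Rgs5, Ptprb, Podxl, Klk1 and S100g.

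The lists fall into wall, stromal, blood, immune and tubule genes and a remainder, with 341 genes tested in all, 66 of them higher and 18 lower. Of 124 wall genes (vessels, mural cells, basement membrane), 21 were higher and 4 lower, with a median log2 fold change of 0.96. Of 47 stromal genes 16 were higher and 1 lower (median 1.62), of 13 blood genes 6 and 0 (median 2.07), and of 58 immune genes 13 and 1 (median 1.39). Of 65 tubule genes 10 were higher and 11 lower (median -0.16). Over all genes tested, 2.45% were higher and 5.92% lower, and the median was 0.20. In the fit of all 20 libraries, the members called higher were 4 each of the smooth muscle, fibroblast and erythrocyte lists, 2 each of the elastic fibre and distal tubule lists, and 1 each of the pan-endothelial, pericyte, basement membrane and podocyte lists. The members called lower there were 2 proximal tubule genes and 1 arterial gene, and all other lists with tested members had 0 calls. Tubule and blood transcripts were present in every venule library at the shares given below, and their part in the wall, stromal and immune results was not tested.

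**Figure D2:**
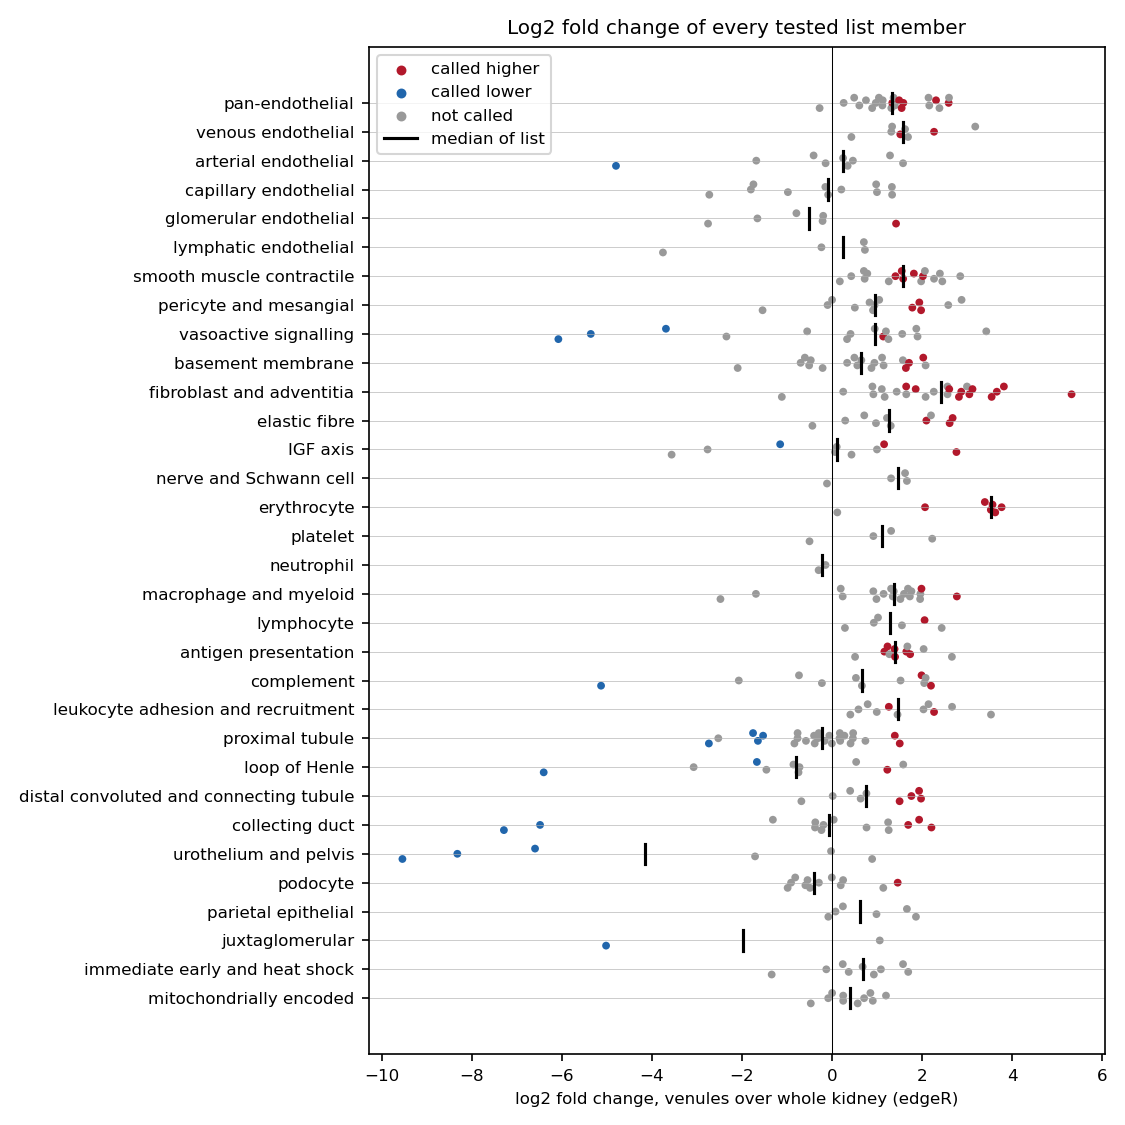
Log2 fold change of venules over whole kidney (x axis) for every tested member of each gene list (y axis), colored by its call, with the list median as a black bar. Fibroblast, erythrocyte, smooth muscle and venous lists sit to the right of 0, with medians of 2.41, 3.53, 1.58 and 1.57, and the urothelium list far to the left with a median of -4.15.

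Genes with the highest fold change and at least 10 CPM in all 4 venule libraries are given first. Gpr182, a membrane receptor of endothelial cells, stood at 15.01, 58.1, 31.7 and 29.6 CPM in venules and at 0.661 to 1.03 CPM in whole kidney (38.1-fold by the ratio of means, log2 fold change 5.23, SE 0.95, FDR 0.00892). It was near the detection limit in whole kidney, while presence in all 4 venule libraries was a condition of the selection. Adamts2, which trims procollagen, measured 71.4, 130.3, 56.0 and 12.4 CPM against 4.14 to 5.18 (log2 fold change 3.88, FDR 0.00911). Il33, a nuclear cytokine of endothelial and stromal cells, measured 12.9, 169.99, 66.2 and 78.7 CPM against 4.85 to 7.76 (log2 fold change 3.82, FDR 0.00916). Ctla2a, a small inhibitor of cysteine proteases, measured 15.3, 178, 91.2 and 265 CPM against 9.05 to 11.7 (log2 fold change 3.75, FDR 0.00911). For both, the lowest venule library lay just above whole kidney and the others far above it. Adam11, a disintegrin best known from neurons, stood at 18.8 to 105 CPM against 1.54 to 6.59 (FDR 0.0143, and 0.0569 and 0.0541 without whole kidney 98 or 100). Lbp, the lipopolysaccharide-binding protein, stood at 42.1, 12.4, 24.7 and 194 CPM against 3.69 to 6.62 (FDR 0.0188), and its call ended without venule 100 (0.0557) or without any of the 4 whole kidney libraries (0.0539 to 0.0644). Mir6236, whose annotation covers a short RNA, measured 14.3 to 37.2 CPM against 0.551 to 2.84 (FDR 0.0223, 0.0666 to 0.0971 without any of the whole kidney libraries). Every gene of this paragraph, Gpr182 included, lost its call in the fit of all 20 libraries (FDR 0.214 to 0.546).

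Of 23 tested pan-endothelial genes, 6 were called higher and 0 lower (list median log2 fold change 1.34). The list took 0.129 to 0.220% of counts in venules and 0.0745 to 0.0833% in whole kidney, with no overlap. The count was 5 to 10 with single libraries left out, 10 being without venule 100, and without venule 98 a pair of members was called lower. Ptprb, the endothelial receptor phosphatase VE-PTP, measured 199.9, 413, 202 and 305 CPM in venules and 34.9, 56.6, 47.4 and 47.1 CPM in whole kidney (6.02-fold, log2 fold change 2.59, SE 0.30, FDR 0.00141). Every venule library was several-fold above every whole kidney library. Emcn, a surface sialomucin of capillary and venous endothelium, measured 216, 294, 199.7 and 163 CPM against 65.4 to 88.7 (2.81-fold, FDR 0.00784). Egfl7, a secreted endothelial factor, stood at 123 ± 24.4 CPM against 41.2 ± 4.13 (FDR 0.00911). Robo4, an endothelial guidance receptor, stood at 68.7 ± 18.3 against 13.8 ± 1.28 (FDR 0.00980).

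The classical reference genes were less clear. Pecam1, the adhesion molecule CD31, measured 279, 179, 74.2 and 88.3 CPM against 70.5, 86.8, 67.5 and 60.2 (log2 fold change 1.12, SE 0.40, FDR 0.133). Venules 93 and 96 lay above all whole kidney libraries, while venules 98 and 100 lay near the highest of them. Without venule 98 or 100 it was called higher (FDR 0.0305 and 0.0491). Cdh5, VE-cadherin, measured 38.1, 14.9, 22.9 and 8.44 CPM against 16.97, 8.40, 11.9 and 12.7 (log2 fold change 0.75, FDR 0.763). The groups overlapped.

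The label was checked against venous markers, which were present in part. Of 12 venous genes 8 were tested, 2 were called higher and 0 lower (median 1.57). The list held 0.0595 to 0.0805% of counts in venules and 0.0327 to 0.0384% in whole kidney. Plvap, the diaphragm protein of fenestrated and venular endothelium, measured 233, 257, 263 and 367 CPM against 109, 96.1, 94.5 and 91.9 (2.86-fold, log2 fold change 1.52, SE 0.22, FDR 0.00550), with no overlap. Vcam1, an adhesion receptor for leukocytes, measured 43.2, 129, 93.2 and 46.6 CPM against 13.9 to 19.5 (FDR 0.0141). Without whole kidney 98 or 100 its FDR was 0.0533 and 0.0577, and the list count fell to 1. Vwf, stored in endothelial granules, varied among venule libraries. Venules 96 and 98 held 52.0 and 40.5 CPM, whereas venules 93 and 100 held 1.10 and 2.29. Whole kidney held 1.54 to 4.31 CPM (log2 fold change 3.18, FDR 0.216). Nr2f2, the transcription factor of venous identity, was not called (241 ± 50.2 against 179 ± 36.4 CPM, FDR 0.410). Ackr1, the chemokine-binding receptor that defines venules in many organs, had 0 counts in all 4 venule libraries, which allows up to 3 counts in each (0.366 to 0.613 CPM). It had 0, 2, 0 and 0 counts in whole kidney. The selectins that catch rolling leukocytes were absent from some venule libraries and clear in others. Selp had 2, 154, 2 and 155 counts and Sele 235, 2, 0 and 128. Whole kidney libraries held at most 7 and 8, and neither gene passed the filter. Nr2f2, Ackr1, Selp and Sele were named after their values were seen, as defining markers of the labelled segment.

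Few markers of other vessel types were called, and few of all genes tested were (2.45% higher and 5.92% lower). Of the 9 arterial genes tested, 0 were higher and 1 was lower (median 0.24). That gene was Unc5b, a netrin receptor of arterial endothelium, with 0.366, 0.392, 0.409 and 0.572 CPM against 8.49 to 14.6 (FDR 0.0246). Without any of the whole kidney libraries its FDR was 0.0723 to 0.105, which left 0 lower. Without venule 93 or 96 the list had 2 and 3 lower, and without venule 98 it had 1 higher. None of the 11 capillary genes was called by edgeR (median -0.09; 3 at an unadjusted p under 0.05, 1 by DESeq2 and 0 by limma voom; 1 higher and 1 lower without venule 100). The member with the smallest p, the phospholipid phosphatase Plpp1, stood at 142, 197, 152 and 43.8 CPM against 49.5 to 59.6 (FDR 0.0688, 0.00719 without venule 100). Of 6 glomerular endothelial genes, 1 was higher (median -0.50; 1 lower without venule 98 or 100). It was Ehd3, a membrane-trafficking protein abundant in glomerular endothelium, at 112, 172, 139.6 and 207 CPM against 46.9 to 68.3 (2.68-fold, FDR 0.00967). The glomerular endothelial list held 0.0121 to 0.0185% of counts in venules and 0.00984 to 0.0118% in whole kidney. Ehd3 gave 79.6 to 97.4% of it in venules, and without Ehd3 the shares overlapped (0.000451 to 0.00377% and 0.00314 to 0.00495%). Of 4 lymphatic genes, 0 were called by edgeR (median 0.23; 1 at an unadjusted p under 0.05, 0 by DESeq2 and 1 by limma voom). Reln, the secreted protein reelin, had 8, 0, 0 and 0 counts in venules and 2.84 to 4.72 CPM in whole kidney (FDR 0.146, and 0.00816 without venule 93). The lymphatic share was 0.00199 to 0.0100% in venules and 0.00395 to 0.00467% in whole kidney.

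**Figure D3:**
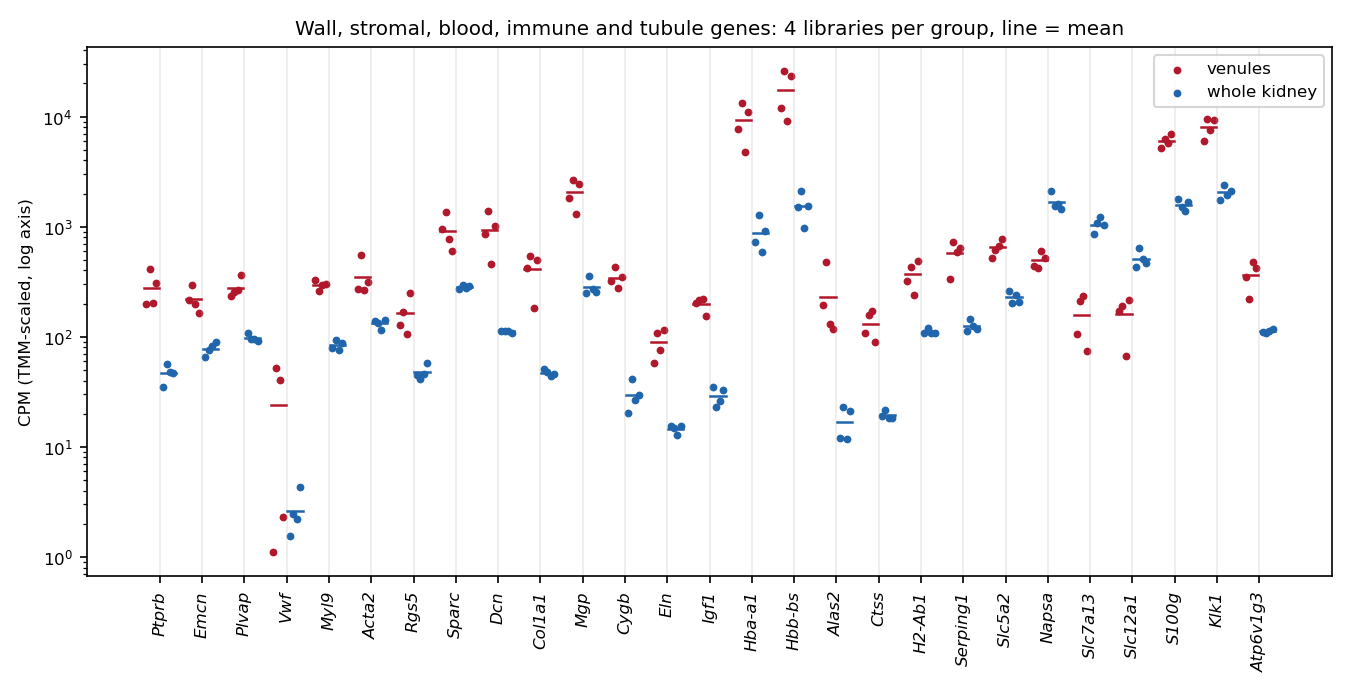
CPM (y axis, log scale) of 27 genes (x axis) in the 4 venule libraries (red) and the 4 whole kidney libraries (blue), with the mean of each group as a line. Igf1 sits at 153 to 219 CPM in venules and 22.8 to 34.7 in whole kidney, Napsa and Slc7a13 lie lower in venules, and the venule libraries differ widely for Vwf.

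Of 17 smooth muscle genes tested, 5 were higher and 0 lower (median 1.58; 4 to 10 higher with single libraries left out, 10 without venule 100). The list held 0.193 to 0.297% of counts in venules and 0.112 to 0.143% in whole kidney. Myl9, the regulatory light chain of smooth muscle myosin, measured 326, 258, 294 and 302 CPM against 78.8, 93.6, 75.1 and 87.3 (3.52-fold, log2 fold change 1.82, SE 0.20, FDR 0.00106). Acta2, smooth muscle actin, measured 269, 555, 266 and 316 CPM against 115 to 143 (FDR 0.00911). Venule 96 was the highest and the other 3 lay close together. Myh11, the smooth muscle myosin heavy chain, stood at 153, 66.5, 89.1 and 240.3 CPM against 24.7 to 46.6 (FDR 0.0122). Flna, an actin cross-linker found in many cells, stood at 278 ± 112 against 92.9 ± 12.4 (FDR 0.00911). The fifth gene, the tropomyosin Tpm2 (named after its values were seen), stood at 103, 78.1, 75.6 and 163 CPM against 29.8 to 43.4 (FDR 0.0190, 0.0537 to 0.0760 without any of the whole kidney libraries). Of 13 pericyte and mesangial genes, 3 were higher and 0 lower (median 0.94; share 0.0499 to 0.0615% against 0.0214 to 0.0276%). Rgs5, a G protein regulator of pericytes, measured 128, 169, 105 and 252 CPM against 41.4 to 57.7 (FDR 0.00885). The others were the transcription factor Ebf1 (108 ± 35.2 against 28.1 ± 4.91 CPM, FDR 0.00911) and Pdgfrb, the growth factor receptor of mural cells (105 ± 41.8 against 26.6 ± 3.37 CPM, FDR 0.00916).

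Vasoactive genes went both ways. Of 15 tested, 1 was higher and 3 were lower (median 0.95). With any single whole kidney library left out, 0 or 1 gene was lower and 0 were higher. Ece1, the enzyme that activates endothelin, measured 112, 105, 119.99 and 94.1 CPM against 43.4 to 54.4 (2.20-fold, FDR 0.0249, 0.0758 to 0.111 without any of the whole kidney libraries). Gucy1b1, a subunit of the nitric oxide receptor, had 2, 0, 0 and 0 counts in venules and 4.01 to 8.71 CPM in whole kidney (FDR 0.0182, and 0.0555 and 0.0539 without whole kidney 98 or 100). Adm, adrenomedullin, had 4, 0, 0 and 1 counts in venules and 3.42 to 9.19 CPM in whole kidney (FDR 0.0394, 0.0868 to 0.108 without any of the whole kidney libraries). Agt, angiotensinogen, which the proximal tubule makes, stood at 4.39, 0.914, 7.15 and 0.286 CPM against 26.4 to 50.2 (FDR 0.0423, 0.0934 to 0.150 likewise). Without venule 96, 98 or 100 the higher count was 2, 3 and 2.

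Of 19 basement membrane genes, 3 were higher and 0 lower (median 0.65; 1 higher without whole kidney 98 or 100). The list held 0.187 to 0.234% of counts in venules and 0.133 to 0.148% in whole kidney. Sparc, a collagen-binding matrix protein, measured 950.2, 1368, 771 and 599 CPM against 269 to 293 (3.27-fold, log2 fold change 1.71, SE 0.24, FDR 0.00441). Nid1, which links laminin to collagen IV, stood at 49.9 to 143 CPM against 20.3 to 22.6 (FDR 0.0131, 0.0522 and 0.0520 without whole kidney 98 or 100). Lamb2, a laminin chain of vessels and glomeruli, stood at 164, 54.8, 189 and 73.2 CPM against 35.4 to 41.6 (FDR 0.0292). Its FDR was 0.0506 to 0.0945 without venule 93 or 98 or any of the whole kidney libraries.

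Of all lists, that of fibroblast and adventitia had the most members called. Of 24 fibroblast and adventitia genes, all tested, 11 were higher and 0 lower, against a background of 2.45%, and in 12 the groups did not overlap, against 6.08%. The median log2 fold change was 2.41. With single libraries left out 8 to 14 members were higher, while 2 were called lower without venule 96 and 1 without venule 100. The list held 0.357 to 0.635% of counts in venules and 0.0993 to 0.102% in whole kidney. Without its most abundant member, Mgp, it held 0.219 to 0.3999% and 0.0662 to 0.0738%. Mgp, an inhibitor of calcification secreted in vessel walls, measured 1832, 2653, 1307 and 2444 CPM in venules and 248, 356, 269 and 254 in whole kidney (7.31-fold, log2 fold change 2.87, SE 0.24, FDR 0.000203). Dcn, the proteoglycan decorin, measured 853, 1384, 459.5 and 1009 CPM against 112, 114, 113 and 109 (8.28-fold, log2 fold change 3.05, SE 0.30, FDR 0.000511). Whole kidney libraries were nearly equal for Dcn, and venule 98 was the lowest of the venules for Mgp, Dcn and Col1a1 alike. Col1a1, a chain of collagen I, measured 419, 538, 184 and 497 CPM against 44.1 to 50.5 (8.69-fold, FDR 0.000517). Col6a2, a chain of collagen VI, measured 175, 166, 86.7 and 41.9 CPM against 7.69 to 12.4 (12.6-fold, FDR 0.00440). Cygb (chr11:116645595-116654313, GRCm38), cytoglobin, a globin of fibroblasts and stellate cells and not of red blood cells, had the smallest p of the list at 318, 431, 275 and 348 CPM against 20.4, 41.6, 26.3 and 29.2 (11.7-fold, log2 fold change 3.54, SE 0.29, FDR 0.000169).

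Of 10 elastic fibre genes tested, 3 were higher and 0 lower (median 1.26). The list held 0.0552 to 0.0701% of counts in venules and 0.0211 to 0.0288% in whole kidney. Eln, elastin itself, measured 57.8, 108, 76.2 and 115 CPM against 12.7 to 15.5 (6.11-fold, FDR 0.00772). Ltbp4, which binds TGF-beta and guides fibre assembly, measured 276, 172, 183 and 175 CPM against 29.0 to 32.7 (6.40-fold, log2 fold change 2.68, SE 0.27, FDR 0.000515). Loxl1, an elastin cross-linking enzyme, measured 95.2 ± 37.1 against 22.3 ± 2.58 CPM (FDR 0.00916). All 3 lay above whole kidney in 4 of 4 libraries and were called with any library left out, and Loxl1 lost its call in the fit of all 20 libraries (FDR 0.399).

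Igf1 (chr10:87858265-87937042, plus strand, GRCm38), the growth factor that circulates from the liver and acts locally in many tissues, measured 204, 215, 219 and 153 CPM in venules and 34.7, 22.8, 26.0 and 33.1 CPM in whole kidney (6.79-fold, log2 fold change 2.76, SE 0.28, FDR 0.000515). All 4 venule libraries were far above whole kidney. All 8 fits without a library kept the call, whereas the fit of all 20 libraries did not (FDR 0.411). The rest of the IGF axis did not follow as a group. Of the 9 genes tested in the list, Igf1 included, 2 were higher, Igf1 and Igfbp4, and 1 was lower (median 0.10). Igfbp4, a binding protein that restrains IGF, stood at 1040.4, 1348, 904 and 1586 CPM against 462 to 683 (2.23-fold, FDR 0.00892). Igfbp5, another binding protein, was lower at 83.6, 93.2, 117 and 145 CPM against 234 to 269 (log2 fold change -1.15, SE 0.23, FDR 0.0103). Without whole kidney 98 its FDR was 0.0507, which left 0 lower, while 3 were lower without venule 96. The receptor gene Igf1r, named after its values were seen, stood at 249.6 ± 61.0 against 238 ± 52.3 CPM (FDR 0.947).

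Most nerve and Schwann cell genes did not pass the filter on low counts. Of 9 genes 4 were tested and 0 were called by edgeR (median 1.47; 1 at an unadjusted p under 0.05, 0 by DESeq2 and by limma voom). Ncam1, a neural adhesion molecule also listed for parietal epithelium, stood at 70.3, 70.1, 5.31 and 86.4 CPM against 13.1 to 22.7 (FDR 0.238; 0.00924 without venule 98). None of the 7 adipocyte genes passed the filter. Their summed share was 0.00512, 0.000157, 0.0348 and 0.0439% in whole kidney libraries and 0.000144, 0.000127, 0.00319 and 8.3e-05% in venules. Adipocyte genes were thus highest in whole kidney 98 and 100. Their share was lower in whole kidney 93 (0.00512%) and venule 98 (0.00319%), and near 0 in the remaining libraries.

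Of the lists with tested members, the erythrocyte list differed most in its share of counts. The 15 erythrocyte genes together held 1.98 to 4.88% of counts in venules and 0.244 to 0.465% in whole kidney, a 9.35-fold difference of means. Only 7 of the 15 passed the filter and 6 had no count in any venule library; of the 7, 6 were higher and 0 lower (median 3.53, 5 or 6 higher with single libraries left out). Adult hemoglobin joins alpha chains from Hba-a1 and Hba-a2 with beta chains from Hbb-bs and Hbb-bt, and red blood cells keep these mRNAs for some time after losing their nucleus. Hbb-bs measured 11994, 25922, 9134 and 23215 CPM in venules and 1509, 2088, 976 and 1525 CPM in whole kidney (11.5-fold, log2 fold change 3.53, SE 0.36, FDR 0.000515). Hba-a1 measured 7675, 13420.5, 4817 and 11045 CPM against 730.3, 1283, 587 and 918 (10.5-fold, FDR 0.000515). Hba-a2 measured 5826, 9925, 3133 and 7685 CPM against 503, 771, 385 and 588 (11.8-fold, FDR 0.000511). Hbb-bt measured 2885, 5178, 1530.0 and 4488 CPM against 263, 369, 188 and 322 (12.3-fold, FDR 0.000515). The 4 genes ranked the venule libraries identically, 96 highest, then 100, 93 and 98, and whole kidney 96 and 98 were highest and lowest of the whole kidney libraries for each. Alas2, the erythroid enzyme that starts heme synthesis, measured 195, 479, 130.4 and 117 CPM against 11.8 to 22.9 (13.6-fold, FDR 0.00315). The sixth, Bpgm (named after its values were seen), which sets the oxygen affinity of hemoglobin through bisphosphoglycerate, stood at 253, 123, 34.7 and 369 CPM against 43.6 to 50.5 (FDR 0.0356, and 0.0688 to 0.101 without venule 93 or 100 or any of the whole kidney libraries).

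The globin promoters are shown as sequence background, because all 4 genes were higher in venules, by 10.5- to 12.3-fold. Whether the promoters bear on this difference was not tested. Each line gives the 120 bases that end just before the transcription start in RefSeq (build GRCm38.p6), 5′ to 3′ on the gene's strand, with capitals for TATAA (the TATA box), CCAAT (the CAAT box) and CACCC (a box known from globin genes) on that strand. No motif overlapped another here.
Hba-a1, chr11:32283552-32283671, plus strand: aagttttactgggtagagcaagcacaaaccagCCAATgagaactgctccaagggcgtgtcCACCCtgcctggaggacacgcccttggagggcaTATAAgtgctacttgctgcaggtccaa
Hba-a2, chr11:32296372-32296491, plus strand: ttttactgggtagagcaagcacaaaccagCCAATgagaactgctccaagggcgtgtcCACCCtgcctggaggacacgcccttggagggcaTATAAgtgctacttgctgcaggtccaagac
Hbb-bs, chr7:103827929-103828048, minus strand: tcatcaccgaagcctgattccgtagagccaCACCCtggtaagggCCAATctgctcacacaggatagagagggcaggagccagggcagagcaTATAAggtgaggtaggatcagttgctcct
Hbb-bt, chr7:103813924-103814043, minus strand: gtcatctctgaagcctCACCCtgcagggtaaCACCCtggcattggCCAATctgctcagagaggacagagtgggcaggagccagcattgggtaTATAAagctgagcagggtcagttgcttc

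All 4 windows held all 3 motifs, which 226 of 32851 promoter windows of this length did (0.688%; either strand; CACCC 31.7%, CCAAT 21.3%, TATAA 11.8%). In both alpha genes the CCAAT stretch stood upstream of the CACCC stretch (88 and 60 bases before the start in Hba-a1), and in both beta genes the order was the other way (76 and 90 bases in Hbb-bs). Over the 300 bases around the start, Hba-a1 and Hba-a2 shared an unbroken run of 297 bases, while Hbb-bs and Hbb-bt shared at most 14. Hba-a1 and Hba-a2 are near-identical copies, as are the beta genes in their coding parts, so how reads divide between copies is uncertain and the summed globin share (1.96 to 4.83% against 0.236 to 0.456%) does not depend on it.

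No platelet or neutrophil gene was called. Of 11 platelet genes 4 were tested and 0 called by edgeR (median 1.11; 1 at an unadjusted p under 0.05, 1 by DESeq2 and 0 by limma voom; 1 lower without venule 93). The integrin Itga2b stood at 23.1, 98.7, 55.2 and 8.87 CPM against 8.46 to 11.6 (FDR 0.119; 0.0131 without venule 100). Of 9 neutrophil genes 2 were tested and 0 called by edgeR (median -0.22; 0 at an unadjusted p under 0.05, 0 by DESeq2 and 0 by limma voom). S100a9, a calcium-binding protein of neutrophils, stood at 1.22, 9.27, 0.613 and 0.572 CPM against 0.992, 6.72, 4.05 and 2.67 (FDR 0.951), with venule 96 and whole kidney 96 the highest of their groups. The neutrophil share was 0.000151 to 0.00215% in venules and 0.000543 to 0.00196% in whole kidney.

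Among the immune lists, antigen presentation had the most members called. Of 11 tested, 6 were higher and 0 lower (median 1.40; 6 to 7 with single libraries left out). The list held 0.229 to 0.287% of counts in venules and 0.108 to 0.122% in whole kidney. H2-Ab1, a chain of the class II molecule that presents peptides to helper T cells, measured 322, 432, 238 and 483 CPM against 108 to 119 (3.33-fold, log2 fold change 1.73, SE 0.24, FDR 0.00440). H2-Eb1, a chain of another class II molecule, measured 278, 413, 441 and 182 CPM against 89.7 to 126 (FDR 0.00838). B2m, the invariant chain of class I molecules, measured 712, 928, 775 and 1230.2 CPM against 288 to 369.6 (2.64-fold, FDR 0.00550). The class I heavy chain H2-D1 measured 304, 335, 349.9 and 285 CPM against 127 to 141 (2.35-fold, FDR 0.00602). All 4 lay above whole kidney in 4 of 4 libraries, and in the fit of all 20 libraries 0 of the 11 were called (FDR 0.105 to 0.297 for these 4). Class I heavy chains are close paralogs, so reads of H2-D1 may be shared with its relatives.

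Of 19 macrophage and myeloid genes, 2 were higher and 0 lower (median 1.37). The list held 0.0396 to 0.0830% of counts in venules and 0.0281 to 0.0338% in whole kidney. Without venule 98, 2 members were called lower, and without venule 100, 1. Ctss, the lysosomal protease cathepsin S, measured 107, 158, 173 and 88.8 CPM against 18.2 to 21.6 (6.83-fold, log2 fold change 2.77, SE 0.34, FDR 0.00201). Lyz2, lysozyme of phagocytes, measured 259, 196, 77.5 and 136 CPM against 37.0 to 49.1 (3.96-fold, FDR 0.00911). Of these 19 genes, 9 were split between venule libraries in the sense above, against 36.9% of all genes tested and 23.8% over all lists. Splits were not particular to immune genes, since 5 of 10 elastic fibre and 6 of 13 pericyte and mesangial genes were split as well. Of 14 lymphocyte genes 6 were tested, 1 was higher and 0 lower (median 1.29). The list held 0.0121 to 0.0262% of counts in venules and 0.00522 to 0.00925% in whole kidney, with no overlap. Cd52, a small surface glycoprotein, measured 102, 102, 87.9 and 43.1 CPM against 16.4 to 24.1 (FDR 0.0115). Of the 6, 5 were split, and 2 were higher without venule 100. Cd79a, a defining B cell gene, and Cd3g, a defining T cell gene, were among 3 list members with 0 counts in all venule libraries. A 0 allows up to 3 counts in each library (0.366 to 0.613 CPM). Both genes were named after their values were seen.

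Of 11 complement genes, 2 were higher and 1 lower (median 0.66; share 0.0821 to 0.133% against 0.0416 to 0.0510%). Serping1, the C1 inhibitor, measured 334, 728, 588 and 643 CPM against 114, 143, 125 and 118 (4.59-fold, log2 fold change 2.20, SE 0.25, FDR 0.00107). C3ar1, the receptor for C3a, had 0, 2, 0 and 0 counts in venules and 2.15 to 3.75 CPM in whole kidney (FDR 0.0178, and 0.0522 without whole kidney 98). Without venule 93 or 98, 2 members were lower. Of 11 leukocyte adhesion and recruitment genes, 2 were higher and 0 lower (median 1.45), Vcam1 as given above and Cx3cl1. Cx3cl1, the membrane-bound chemokine fractalkine, measured 153, 172, 155 and 121 CPM against 52.2 to 76.4 (2.40-fold, FDR 0.0111). The count was 0 without whole kidney 98 or 100 (Cx3cl1 FDR 0.0554 and 0.0541) and 6 without venule 100.

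**Figure D4:**
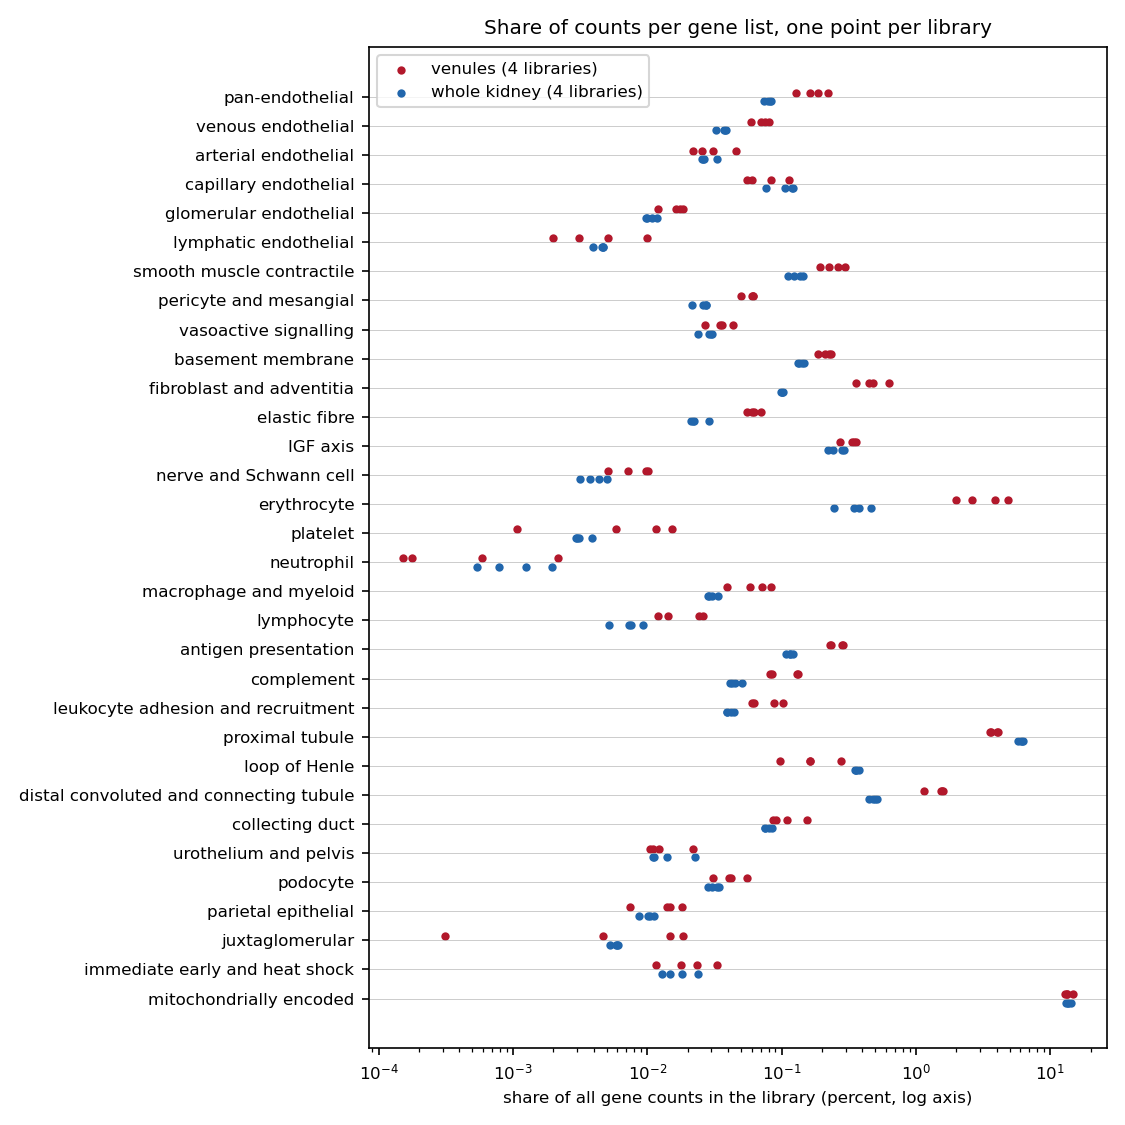
Share of all gene counts taken by each list (x axis, percent, log scale), with a point for each venule library (red) and each whole kidney library (blue). Erythrocyte genes stand at 1.98 to 4.88% against 0.244 to 0.465%, fibroblast genes at 0.357 to 0.635% against 0.0993 to 0.102%, and proximal tubule genes at 3.57 to 4.07% against 5.76 to 6.30%.

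Tubule transcripts remained abundant in venule libraries, and their makeup differed from whole kidney. The 26 proximal tubule genes held 3.57 to 4.07% of counts in venules and 5.76 to 6.30% in whole kidney. Kap, an androgen-regulated kidney protein, alone gave 40.8 to 46.8% of the list in venules and 55.1 to 56.5% in whole kidney. Without Kap the shares were 1.96 to 2.22% in venules and 2.50 to 2.77% in whole kidney. Of the 26, all tested, 2 were higher and 4 lower (median -0.23), and in 8 every venule library lay below whole kidney (against 12.4% of all genes tested). Slc5a2, the glucose carrier SGLT2 of the early proximal tubule, measured 523, 619, 672 and 773 CPM in venules and 262, 204, 239.8 and 208 in whole kidney (2.83-fold, log2 fold change 1.503, SE 0.19, FDR 0.00201). Slc5a12, a lactate carrier, measured 147, 244, 58.5 and 168 CPM against 46.7 to 67.1 (FDR 0.0448), a call that ended without any library other than venule 98 (0.0510 to 0.138). Among the lower genes, Slc7a13, an amino acid carrier of the last, straight part of the proximal tubule, measured 106, 212, 235 and 74.2 CPM against 851, 1088, 1213 and 1026 (6.66-fold lower, log2 fold change -2.74, SE 0.34, FDR 0.00201). Napsa, the aspartic protease napsin A, measured 435, 425, 603 and 521 CPM against 2128, 1529, 1590.2 and 1458 (3.38-fold lower, log2 fold change -1.76, SE 0.19, FDR 0.000648). Slc27a2, which activates very long-chain fatty acids, measured 273, 338, 207 and 230.0 CPM against 720.0 to 813 (2.89-fold lower, FDR 0.00201). The fourth, the acyl-CoA synthetase gene Acsm3 (named after its values were seen), stood at 77.9, 30.03, 74.2 and 37.0 CPM against 129 to 191 (FDR 0.0126). All 4 lower calls held with any library left out.

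Of 10 loop of Henle genes, 1 was higher and 2 were lower (median -0.80). The list held 0.0982 to 0.277% of counts in venules and 0.354 to 0.375% in whole kidney, with no overlap. Slc12a1, the salt carrier NKCC2 of the thick ascending limb, measured 170.0, 188, 66.4 and 217 CPM against 429, 646, 506 and 463 (3.18-fold lower, log2 fold change -1.67, SE 0.32, FDR 0.00917). Ptger3, a prostaglandin receptor of the thick limb and collecting duct, had 0, 0, 0 and 5 counts in venules and 13.2 to 19.4 CPM in whole kidney (FDR 0.0356, 0.1003 to 0.109 without any of the whole kidney libraries). Without venule 100, 5 loop genes were lower, and with any single whole kidney library left out 1 was. The higher count was 0 without venule 96 and with any single whole kidney library left out.

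Several genes of the distal convoluted and connecting tubule were higher in venules. The list's 9 genes held 1.15 to 1.60% of counts in venules and 0.450 to 0.511% in whole kidney, a 3.03-fold difference of means. Without Klk1, the largest member, it held 0.603 to 0.827% against 0.236 to 0.297%. Of the 9, 4 were higher and 0 lower (median 0.76), and these 4 were called with any library left out. S100g (chrX:162961992-162964599, minus strand), the calcium buffer calbindin-D9k, had the smallest p of all list members at 5152, 6315, 5753 and 6931 CPM against 1767, 1511, 1385 and 1663 (3.82-fold, log2 fold change 1.93, SE 0.15, FDR 0.000140). Calb1, the calcium buffer calbindin-D28k, measured 763, 729, 929.8 and 1819 CPM against 455, 390.2, 271 and 384 (2.83-fold, FDR 0.00951). Slc8a1, the sodium-calcium exchanger that returns calcium to the blood, measured 218, 451, 187 and 597 CPM against 79.4 to 146 (3.39-fold, FDR 0.0119). Klk1, tissue kallikrein of the connecting tubule, measured 6014, 9511, 7505 and 9287 CPM against 1764, 2399, 1929 and 2124 (3.93-fold, log2 fold change 1.98, SE 0.18, FDR 0.000321). It has close paralogs with which reads may be shared. Slc12a3, the thiazide-sensitive carrier that defines the distal convoluted tubule and was named after its values were seen, stood at 408, 590.3, 236 and 494 CPM against 226 to 281 (log2 fold change 0.76, FDR 0.107).

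Of 14 collecting duct genes, 3 were higher and 2 lower (median -0.08; 1 higher without whole kidney 93 or 96, 1 lower without whole kidney 96 and 0 without whole kidney 98 or 100). The list held 0.0857 to 0.154% of counts in venules and 0.0755 to 0.0853% in whole kidney. The higher genes belong to intercalated cells, which secrete acid or base, but not every intercalated cell gene of the list was called. Atp6v1g3, a proton pump subunit, measured 346, 219, 476 and 418 CPM against 108 to 119 (3.23-fold, log2 fold change 1.69, SE 0.25, FDR 0.00559). Slc26a4, the chloride-bicarbonate exchanger pendrin, measured 42.6, 143, 184 and 197 CPM against 29.5 to 42.8 (FDR 0.0163, 0.0518 and 0.0575 without whole kidney 93 or 96). Venule 93 was at the level of whole kidney. The third was the intercalated cell transcription factor Foxi1, named after its values were seen (31.5, 84.7, 28.6 and 74.5 CPM against 8.62 to 16.97, FDR 0.0411, and 0.0577 to 0.155 without venule 96 or any of the whole kidney libraries). Among the lower genes, Aqp4, a water channel of principal cells, had 1, 0, 1 and 1 counts in venules and 9.04 to 14.9 CPM in whole kidney (FDR 0.0139, 0.0566 and 0.0541 without whole kidney 98 or 100). Slc14a2, the urea transporter of the inner medulla, had 0, 4, 0 and 0 counts against 16.1 to 28.1 CPM (FDR 0.0137, 0.0521 to 0.0560 without whole kidney 96, 98 or 100). Aqp2, the water channel that defines principal cells, was not called (241 ± 81.9 against 283 ± 27.9 CPM, FDR 0.753) and was named after its values were seen.

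The genes with the lowest fold change were nearly absent from venules, so counts are given in place of a fold. Slc22a19, an organic anion carrier, had 3, 1, 0 and 1 counts in the venule libraries and 66.1, 21.8, 39.4 and 30.4 CPM in whole kidney (FDR 0.00550). Akr1c18, a steroid dehydrogenase, had 3, 1, 1 and 1 counts against 18.7 to 35.7 CPM (FDR 0.00772). Serpina1a, an alpha-1-antitrypsin gene with close paralogs, had 2, 1, 2 and 1 counts against 19.6 to 48.5 CPM (FDR 0.00668). Nccrp1 had 3, 6, 3 and 3 counts against 31.3 to 75.0 CPM (FDR 0.00201) and Methig1 1, 0, 2 and 2 against 20.5 to 29.98 CPM (FDR 0.00911). Pxylp1 had 0, 1, 0 and 0 against 10.03 to 16.2 CPM (FDR 0.00999) and Gnpda2 1, 1, 1 and 1 against 11.5 to 20.3 CPM (FDR 0.00943). Prok1, prokineticin, had 1, 5, 0 and 0 counts against 16.5 to 25.3 CPM (FDR 0.0172, 0.0503 to 0.0666 without any of the whole kidney libraries). No venule library held more than 6 counts of any of them.

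Urothelium, which lines the renal pelvis, had the lowest median of all lists. Of 6 genes tested, 3 were lower and 0 higher (median -4.15; 1 lower without whole kidney 98, 5 lower and 1 higher without venule 98). Upk1a, a plaque protein of the urothelial surface, had 0 counts in every venule library and 6.06, 3.23, 11.3 and 23.4 CPM in whole kidney (FDR 0.0163; 0.0525 without whole kidney 98). Psca, a surface antigen, had 0, 1, 0 and 0 counts against 8.16, 3.36, 16.99 and 35.2 CPM (FDR 0.0114). Krt19, a keratin of simple epithelia, had 1, 1, 0 and 0 counts against 2.46 to 14.9 CPM (FDR 0.0163; 0.0522 without whole kidney 98). All 3 varied among whole kidney libraries as well, being highest in whole kidney 100 and lowest in 96. The list's summed share overlapped (0.0104 to 0.0219% against 0.0110 to 0.0227%), and 39.3 to 99.9% of it came from Krt7, which other epithelia also make.

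Genes of the glomerulus and its surroundings gave few calls (over all genes tested, 2.45% were higher and 5.92% lower). Of 12 podocyte genes, 1 was higher and 0 lower (median -0.39; 2 higher without venule 96 and 1 lower without venule 100). It was Podxl, podocalyxin, which endothelium also carries, at 261, 175, 203 and 414 CPM against 88.2 to 105 (2.75-fold, log2 fold change 1.46, SE 0.28, FDR 0.00926). Nphs1, the slit diaphragm protein nephrin that defines podocytes and was named after its values were seen, stood at 8.30, 1.04, 0.204 and 0.715 CPM against 4.01 to 5.74 (FDR 0.801). None of 6 parietal epithelial genes was called by edgeR (median 0.61; 1 at an unadjusted p under 0.05, 0 by DESeq2 and by limma voom; 1 higher without venule 98, which was Ncam1). Akr1b7, an enzyme of renin-producing cells, had 1, 0, 0 and 0 counts in venules and 1.21 to 2.33 CPM in whole kidney (FDR 0.00916). Renin itself (Ren1, named after its values were seen) measured 163, 3.53, 44.6 and 222 CPM against 50.03 to 53.5 (FDR 0.606). None of 9 immediate early and heat shock genes was called by edgeR (median 0.68; 0 at an unadjusted p under 0.05, 0 by DESeq2 and by limma voom; 1 lower without venule 100). Junb, an immediate early transcription factor, stood at 6.35, 85.3, 11.7 and 75.1 CPM against 8.60 to 20.9 (FDR 0.348). None of 10 mitochondrially encoded genes passed both thresholds in edgeR (median 0.41; 4 at an unadjusted p under 0.05, 0 called by DESeq2 and by limma voom; 1 higher without venule 98 or whole kidney 93). mt-Rnr2, the large mitochondrial ribosomal RNA, had an FDR of 0.00613 at a log2 fold change of 0.90 (29635, 31823, 23702 and 30938 CPM against 14550.5 to 16736).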

How the data were processed

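The authors deposited raw counts per gene for microdissected kidney compartments and whole kidney in a single table of 34255 genes, 0 of its lines being a summary that names no gene. Per the labels and the study's methods, RNA was sequenced as 3′ mRNA libraries, trimmed, aligned with STAR 2.7 to GRCm38.p6 and counted with HTSeq 0.13, with SAMtools 1.9, FastQC 0.11.8 and MultiQC 1.7 also named. The submitters' processing notes further name featureCounts and GRCm39 without a role. No source used here gives the strand setting or says whether PCR duplicates were collapsed, and limits set by a count of 0 cover counting error only. Another 148 columns of the table belong to no sample used here and were not used.

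Only the 4 venule and 4 whole kidney libraries entered the comparison. Counts were tested with edgeR 4.0.16 (quasi-likelihood, TMM, filterByExpr; R 4.3.3), with Benjamini-Hochberg adjustment over the 12919 genes that passed. A call needed an FDR under 0.05 and a change larger than 1 on the log2 scale. The SE was derived from the fold change and its F statistic, and folds are ratios of mean CPM. Single values per library were tested by exact permutation (scipy 1.17.1). A split gene lay under 1 CPM in a library of a group and at 10 CPM or more in another. The test was checked on data simulated with the same spread in both groups. The real spread was unequal (common dispersion 1.89 in venules and 0.0397 in whole kidney), which that check does not cover. A simulation with a spread for each group was also run, but it set no condition and its call rates are not reported here. Alternatives were DESeq2 1.42.0, limma 3.58.1 voom, other filters and size factors, all 20 libraries, a replicate block and leaving out each library.

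The members and the 33 gene lists (423 genes, 1 of them missing from the table) were chosen with earlier results of these data known. Named genes were the 12 called genes with the highest fold change and at least 10 CPM in all 4 venule libraries, the 10 lowest with at least 10 CPM in all 4 whole kidney libraries, from each list at most 4 called members by smallest p and at most 2 that went against its direction (or the member with the smallest p where none was called), and Pecam1, Cdh5, Plvap, Emcn, Ehd3, Vwf and Igf1. Of the genes without a proper symbol, 1 was passed over among the highest and 1 among the lowest. Another 10 tested genes and a few untested markers were named after their values were seen. Another 2 genes chosen by the rule are not reported here. Promoter sequences came from RefSeq.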

Additional observations from a re-analysis of the deposited data

Results flagged for a closer look

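In all, 272 groups of 4 values were examined (each named gene and each list share, in venules and in whole kidney). Of these, 26 held a library that stood apart by Dixon's test. For normally distributed values chance alone marks about 1 in 20. Where 3 of 4 values are 0, any count stands apart, so the 26 cannot be set against that rate. Among genes at 0 in the other 3 venule libraries, single libraries held a few counts: Pxylp1 and Psca at 0.131 CPM each, Slc14a2 at 0.522 CPM and C3ar1 at 0.261 CPM in venule 96, Reln at 0.976 CPM, Gucy1b1 at 0.244 CPM and Akr1b7 at 0.122 CPM in venule 93, and Ptger3 at 0.715 CPM in venule 100. Among the venule libraries, Lbp stood apart in venule 100 (194 CPM, the others 12.4 to 42.1), Acta2 in venule 96 (555 CPM, the others 266 to 316), S100a9 in venule 96 (9.27 CPM, the others 0.572 to 1.22), Ltbp4 in venule 93 (276 CPM, the others 172 to 183) and Nphs1 in venule 93 (8.30 CPM).

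Whole kidney 96 was high for Il33 (7.76 CPM), Flna (111 CPM) and H2-Ab1 (119 CPM) and low for Acsm3 (129 CPM, the others 181 to 191), and whole kidney 98 for Igfbp5 (269 CPM, the others 234 to 237). By share of counts, whole kidney 93 was low for venous genes (0.0327%) and high for elastic fibre genes (0.0288%), and whole kidney 96 was high for arterial genes (0.0329%) and low for lymphatic genes (0.00395%). Venule 93 was low for pericyte and mesangial genes (0.0499%, the others 0.0607 to 0.0615%) and for distal convoluted and connecting tubule genes (1.15%, the others 1.55 to 1.60%), venule 98 was high for adipocyte genes (0.00319%) and venule 96 for urothelium genes (0.0219%, the others 0.0104 to 0.0123%).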

How the results depend on the processing

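Against 317 genes higher and 765 lower, DESeq2 gave 634 and 457, independent filtering of the edgeR p-values 512 and 2214, and the fit of all 20 libraries 28 and 3. Without a filter on low counts 1722 genes were lower, and with at least 10 CPM in all 4 libraries of a group 63 were lower, of 24181 and 7691 genes tested. DESeq2 size factors (348 and 762) and limma voom (218 and 1040) stayed within 1.5 times. With single libraries left out, 156 to 580 genes were higher and 493 to 1717 lower. In the fits where a gene called higher or lower was tested, 0 turned direction. The median log2 fold change of all genes, 0.20 here, was -0.62 with the block, -0.77 with voom and -0.53 without a filter.

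With the number in the column name (93, 96, 98, 100) as a replicate block, 169 genes were higher and 333 lower, of which 167 and 300 were called without it. Same-numbered libraries did not deviate together (correlations of -0.02 to 0.02 with the group means removed). Not every library was closest to its own number, and pairs with different numbers gave correlations of -0.03 to 0.04. With venule libraries so unlike one another, this check cannot tell whether same-numbered samples came from the same mouse.

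Of the 103 tested genes named, 64 lost their call in the fit of all 20 libraries and 23 under the block, and 98 or more stayed on their side of the thresholds with DESeq2 size factors, DESeq2, independent filtering or no filter. Of genes that were not called, S100a9 (-0.30) changed sign without venule 98 (0.04), venule 100 (0.05) or whole kidney 96 (0.17), Igf1r without venule 93 (-0.040) or 100 (-0.018) or whole kidney 93 (-0.043) or 96 (-0.011), and Ren1 with voom (-0.092). With single libraries left out, S100a9 ranged from -2.13 to 0.17 and Igf1r from -0.043 to 0.21. List counts moved by over 1.5 times in 25 of 64 cases in the fit of all 20 libraries and in 14 under the block. List medians moved in 14 lists with voom (18 stayed) and in 12 under the block (20 stayed), while all 32 stayed with DESeq2. Without thinning, the difference in detected genes was -6474. The cause of these shifts was not tested.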
